A study of Mus musculus with 32 samples.

Results

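This account follows 9 genes that skeletal muscle is known to switch on under mechanical load, injury or protein stress: Rrad, Ankrd1, Ankrd2, Csrp3, Xirp1, Flnc, Hspb1, Cryab and Mustn1. They were chosen by name, from 53801 gene IDs in the tables, and each name matched 1 ID. All 9 were among the 12817 genes that reached 1 TPM (a level scaled for transcript length and for the total of the library) in at least 4 libraries. RNA came from quadriceps of 32 mice that were wild type (WT) or homozygous for Col6a2tm1(KOMP)Vlcg, written Col6a2-/-, aged 5 or 25 weeks, female or male, with 4 mice in each of 8 groups. The allele was made on C57BL/6N and backcrossed for 5 generations onto C57BL/6J, and WT and Col6a2-/- mice were bred from heterozygous parents, per the labels. Col6a2 encodes a chain of collagen VI, a protein of the matrix around muscle fibres. The labels name no promoter or cell type that would restrict the loss, and the RNA was taken from whole cryosections, so every cell type of the muscle contributed.

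In muscle, stretch and contraction are sensed partly at the Z-disc, where titin and filamin filaments meet actin. The muscle ankyrin repeat proteins Ankrd1 and Ankrd2 bind titin and can also enter the nucleus, Csrp3 (muscle LIM protein) anchors Z-disc complexes, and Xirp1 (Xin) and its partner Flnc (filamin C) gather at sites of fibre damage. Hspb1 and Cryab are small heat shock proteins that hold unfolded cytoskeletal proteins, Rrad is a small GTPase of the RGK family that binds calcium channel β subunits and is made in injured muscle, and Mustn1 is a small nuclear protein of growing and regenerating musculoskeletal tissue.

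The stretches of DNA just before the starts of Ankrd1, Hspb1 and Ankrd2 are shown as examples from the set. These genes behaved differently from each other. Ankrd1 had the widest 5-week difference of the muscle ankyrin repeat genes, Hspb1 a small one, and Ankrd2 varied from mouse to mouse. Whether the stretches shown have a part in these differences was not tested. Each is the 130 bases before a RefSeq transcript start on GRCm38.p6, 5′ to 3′ on the strand of the gene. Capitals mark matches on either strand to CATTCC (the TEAD or MCAT core; GGAATG is its reverse complement), to GAANNTTC (paired heat shock units) or to TATAAA. The regions are chr19:36119845-36119974 on the minus strand for Ankrd1, chr5:135887789-135887918 on the plus strand for Hspb1 and chr19:42035897-42036026 on the plus strand for Ankrd2.
Ankrd1: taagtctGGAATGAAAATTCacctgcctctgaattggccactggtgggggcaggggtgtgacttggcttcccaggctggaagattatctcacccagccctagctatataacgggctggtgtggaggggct
Hspb1: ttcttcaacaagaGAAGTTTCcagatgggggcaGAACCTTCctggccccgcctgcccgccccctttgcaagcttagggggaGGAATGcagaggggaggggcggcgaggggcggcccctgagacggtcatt
Ankrd2: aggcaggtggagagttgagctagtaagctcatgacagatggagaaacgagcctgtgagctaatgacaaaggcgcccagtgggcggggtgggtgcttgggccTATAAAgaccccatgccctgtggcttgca
In Ankrd1, the CATTCC match at 123 bases before the start overlaps the GAANNTTC match at 118 by its last base, and a further CATTCC match lies 210 bases before the start, outside the printed stretch. Hspb1 holds GAANNTTC at 117 and 97 bases before its start and CATTCC at 49. Ankrd2 holds TATAAA at 29.

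RefSeq windows were found for 6 of the 9 genes, and the other matches in the 250 bases before a start were CATTCC at 104 in Flnc and GAANNTTC at 166 in Mustn1 and at 10 before a second start of Csrp3. That Csrp3 start lies within the span of the gene, and the bases just after it were not found in a reference transcript of Csrp3. The same lack of a transcript held for the other Csrp3 start and for a further Flnc start without a match. TGANTCA, the CArG box and the MEF2 motif had no match in these windows. Among all 32851 RefSeq windows of the same length, 12.64% held CATTCC, 6.69% GAANNTTC, 12.37% TATAAA, 6.75% TGANTCA, 1.47% the CArG box and 2.92% the MEF2 motif. These are matches of letters, and binding was not measured.

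Col6a2 itself separated the genotypes, at 19.9 to 51.2 TPM in WT and at most 0.171 in Col6a2-/- mice of 5 weeks, and at 6.60 to 13.6 against at most 0.0344 at 25 weeks (two-sided exact permutation test, p = 0.000155 at each age, the smallest that 8 against 8 allow). The 8 muscle fibre markers summed to between 14655 and 24493 TPM in every library. Read counts were not used here. A relative depth, inferred from the ratio of coverage to FPKM, spanned 2.02-fold over the libraries, mitochondrial transcripts took 31.9 to 46.9% of the TPM and Rn7s genes 20.8 to 30.5%. Changes below are Col6a2-/- minus WT on the log2(TPM + 1) scale with the standard error (SE) from limma, sexes weighted equally, n = 8 mice of each genotype at each age. A gene is said to be called where the Benjamini-Hochberg adjusted p over all 12817 genes was under 0.05. In whole muscle, fewer cells of a type and less RNA per cell cannot be told apart.

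At 5 weeks, Rrad, Ankrd1 and Mustn1 were higher in all 8 Col6a2-/- mice than in any WT mouse, Cryab was above the WT mean of its sex in all 8, and the ranges of Ankrd2, Csrp3, Xirp1, Flnc and Hspb1 overlapped those of WT mice. At 25 weeks, in other mice, Rrad and Mustn1 were again above every WT mouse and Ankrd1 was not. Earlier results at 5 weeks were among the values that the genes were chosen on, so the 5-week values of the 9 are given as a description. Where a limma call for the 9 uses the 5-week mice, it is set beside the share of all genes and not read as evidence. Results of the 25-week mice were known too, the smaller Rrad difference at that age among them. Adjusted p-values at 25 weeks therefore place each gene in the fit over all genes and are not independent evidence, and nothing is read from counts of calls among the 9.

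Rrad had the widest difference. In WT mice of 5 weeks it was at 0.645, 0.795, 0.679 and 0.761 TPM in the females and at 1.96, 1.43, 0.951 and 0.555 in the males. In Col6a2-/- mice of that age it was at 17.1, 33.6, 17.9 and 4.85 TPM in the females and at 26.2, 27.5, 26.8 and 7.83 in the males. The lowest Col6a2-/- mouse was thus above the highest WT mouse, and replicate 4 was the lowest Col6a2-/- mouse in each sex. The ratio of mean TPM was 20.8, and the change was 3.26 (SE 0.253) against a median of 0.145 over all genes. With a pseudocount of 5 the change was 1.95.

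At 25 weeks Rrad was at 0.723, 1.21, 0.608 and 1.47 TPM in WT females and 0.491, 0.511, 0.773 and 0.709 in WT males. It was at 1.89, 2.61, 3.98 and 4.10 TPM in Col6a2-/- females and 2.85, 2.49, 5.28 and 2.62 in Col6a2-/- males. The genotypes again did not overlap, but every Col6a2-/- mouse of 25 weeks except replicate 3 of the males lay below the lowest Col6a2-/- mouse of 5 weeks. Rrad rose by 1.20 (SE 0.253; limma, adjusted p = 0.00617), a ratio of mean TPM of 3.97. With a pseudocount of 5 the change was 0.492 and the call was lost (limma, adjusted p = 0.144). The 25-week difference was smaller than the 5-week one by 2.05 (SE 0.358), given as a description because it uses the 5-week mice. WT levels were alike at both ages, at 0.971 ± 0.481 and 0.812 ± 0.349 TPM (SD, n = 8), whereas Col6a2-/- levels were 20.2 ± 10.1 and 3.23 ± 1.12. The antisense gene Gm33023 overlaps Rrad (ENSMUSG00000031880, chromosome 8, 104628070 to 104631327, minus strand) and reached at most 0.210 TPM. The lowest WT level of Rrad was 0.491 TPM, and the share of antisense reads in it was not tested.

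**Figure D1:**
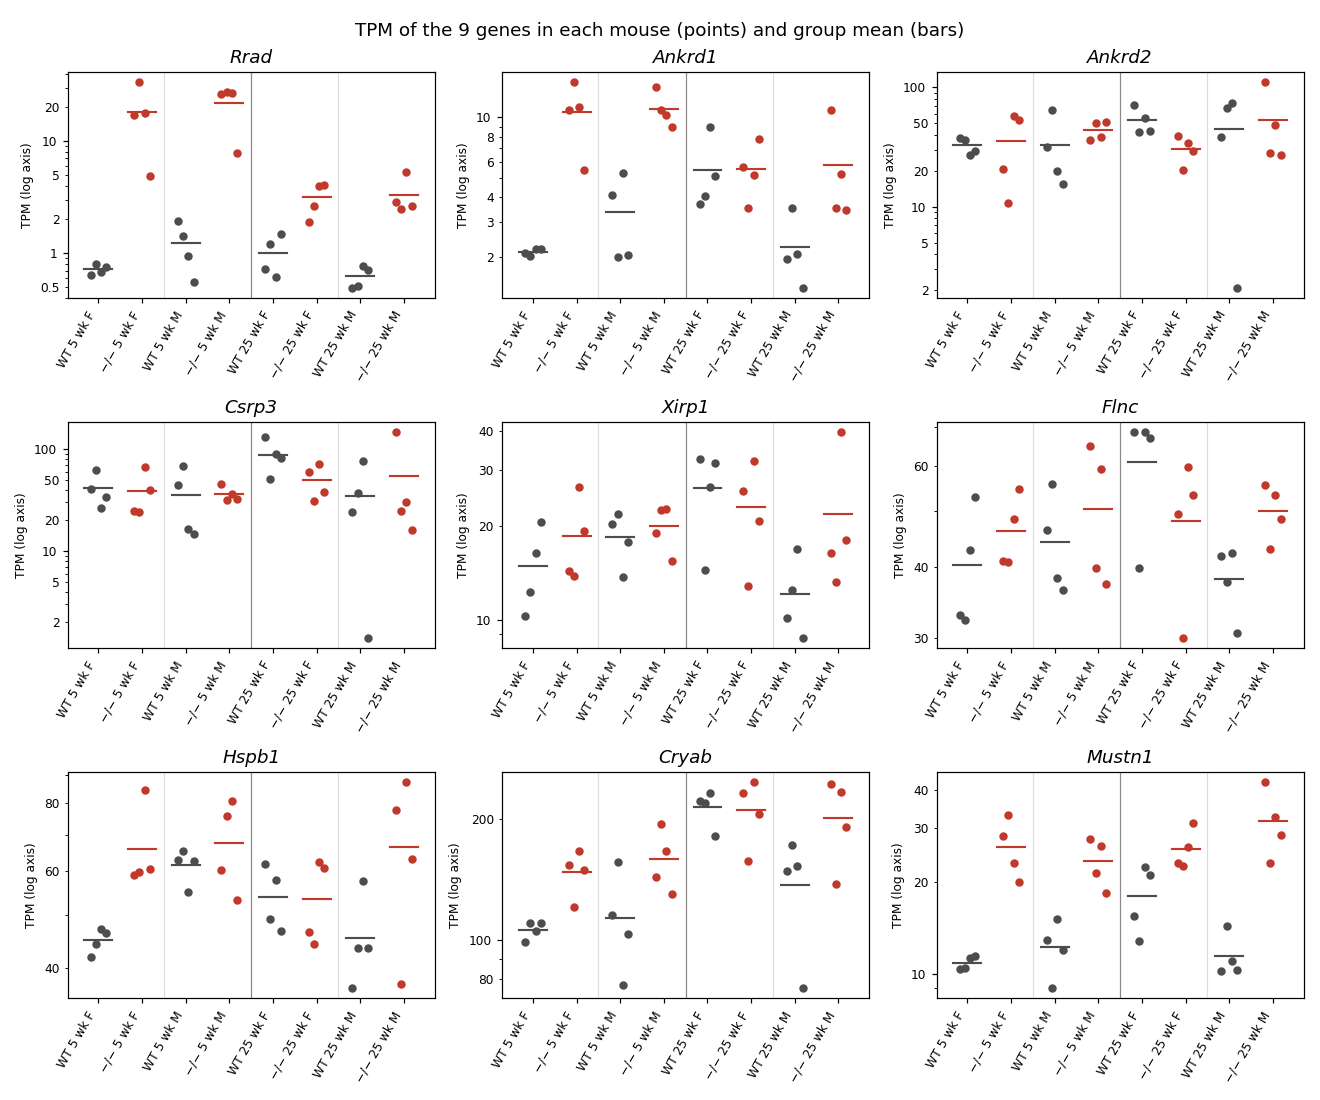
TPM of the 9 genes (vertical log axis, its range set for each gene) in 8 groups of 4 mice, WT in grey and Col6a2-/- (written −/−) in red. Points are mice and bars are group means. Rrad and Mustn1 separate the genotypes at both ages, Ankrd1 at 5 weeks, and Ankrd2 and Csrp3 each have 1 very low WT male of 25 weeks.

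With the sexes joined, Mustn1 had a difference of about the same size at both ages. In WT mice of 5 weeks it was at 10.4, 10.5, 11.3 and 11.5 TPM in females and 13, 9.01, 15.2 and 12.0 in males. In Col6a2-/- mice it was at 28.2, 33.3, 23.2 and 20.0 in females and 27.6, 21.4, 26.3 and 18.4 in males. No Col6a2-/- value came down to the WT range, and the change was 1.02 (SE 0.131). At 25 weeks WT females were at 15.5, 12.8, 22.4 and 21.2 TPM and WT males at 10.2, 14.4, 11.1 and 10.4. Col6a2-/- females were at 23.0, 22.6, 26.1 and 31.3 and males at 42.4, 23.0, 32.6 and 28.6. The ranges were next to each other, with the highest WT female at 22.4 and the lowest Col6a2-/- female at 22.6, and did not overlap. Mustn1 rose by 0.94 (SE 0.131; limma, adjusted p = 0.000135), with a ratio of mean TPM of 1.95 after 2.14 at 5 weeks. Within the sexes the sizes were less alike. The change was 1.17 at 5 weeks and 0.52 at 25 weeks in females, and 0.88 and 1.36 in males (SE 0.186 for each). With the sexes joined, Mustn1 was called at 25 weeks under all 11 other settings and without each of the 32 libraries in turn. Mustn1 (ENSMUSG00000042485) lies on chromosome 14 from 30879200 to 30881610, plus strand.

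Across all genes tested, 1.18% had every Col6a2-/- library above every WT library at 5 weeks and 0.663% at 25 weeks. Of the 9 genes, 3 did so at 5 weeks and 2 at 25 weeks. By the limma call, 4 of the 9 were higher at 5 weeks (Rrad, Ankrd1, Mustn1 and Cryab), where 23.2% of all genes were called higher and nothing is read from the count. At 25 weeks 2 of the 9 were called higher, against 4.47% of all genes. The median change of the 9 was 0.32 at 5 weeks and 0.26 at 25 weeks, beside 0.145 and 0.082 over all genes.

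Ankrd1 and Ankrd2, close relatives in sequence and function, did not move together. Ankrd1 (ENSMUSG00000024803, chromosome 19, 36111965 to 36119844, minus strand; promoter shown above) was at 2.11, 2.03, 2.20 and 2.20 TPM in WT females of 5 weeks and 4.10, 2.0, 5.29 and 2.05 in WT males. In Col6a2-/- mice it was at 10.9, 15.0, 11.3 and 5.45 in females and 14.3, 10.8, 10.2 and 8.95 in males. Every Col6a2-/- mouse was above every WT mouse, the female replicate 4 only just, and the change was 1.67 (SE 0.211), or 1.03 with a pseudocount of 5, with a ratio of mean TPM of 3.96. At 25 weeks WT females were at 3.70, 4.07, 8.97 and 5.11 and WT males at 1.96, 3.54, 2.07 and 1.41. Col6a2-/- females were at 5.68, 3.54, 5.13 and 7.85 and males at 10.9, 3.53, 5.20 and 3.46. The genotypes overlapped in both sexes at that age, with 6 of 8 Col6a2-/- mice above the WT mean of their sex. The 25-week change of 0.51 (SE 0.211) missed the threshold (limma, adjusted p = 0.172), as it did under every other setting. WT means went from 2.75 ± 1.25 to 3.85 ± 2.41 TPM between the ages and Col6a2-/- means from 10.9 ± 2.98 to 5.66 ± 2.58 (SD, n = 8).

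Ankrd2 (ENSMUSG00000025172, chromosome 19, 42036038 to 42045110, plus strand), which is known to be richer in slow fibres, had wide overlapping ranges. At 5 weeks it ran from 15.6 through a median of 30.3 to 64.1 TPM in WT and from 10.7 through 44.2 to 57.2 in Col6a2-/- mice. At 25 weeks the ranges were 2.10, 49.2 and 73.4 in WT and 20.2, 31.9 and 110 in Col6a2-/- mice, again as the lowest, the median and the highest. In females of 25 weeks the Col6a2-/- mice, at 38.7, 20.2, 34.3 and 29.5 TPM, all lay below the WT mice, at 70.4, 42.5, 55.0 and 43.3, as was so for 0.999% of all genes. That difference of -0.77 was not called (limma, adjusted p = 1). The change was 0.22 (SE 0.455) at 5 weeks and -0.027 (SE 0.455; limma, adjusted p = 0.983) at 25 weeks.

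Csrp3 (ENSMUSG00000030470, chromosome 7, 48830398 to 48848033, minus strand) varied like Ankrd2. It ran from 14.8 through 37.3 to 67.8 TPM in WT and from 24.3 through 34.4 to 66.9 in Col6a2-/- mice of 5 weeks. At 25 weeks it ran from 1.41 through 63.7 to 132 in WT and from 16.0 through 34.6 to 146 in Col6a2-/- mice. The changes were 0.078 (SE 0.487) and 0.033 (SE 0.487; limma, adjusted p = 0.981), and the first was -0.107 after median-of-ratios scaling.

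The WT male replicate 4 of 25 weeks held the lowest values of all 32 libraries for 5 of the 9 genes: Ankrd2 (2.10 TPM), Csrp3 (1.41), Cryab (76.0), Ankrd1 (1.41) and Xirp1 (8.73). Mitochondrial transcripts took 32.01% of its TPM, against 44.6 to 46.9% in the other WT males of that age, and its Rn7s share of 30.5% was the highest of the 32. Its 10 slow-fibre markers, such as the slow myosin Myh7, summed to 17.5 TPM, against 302, 373 and 316 in the other WT males of that age and 470 to 1258 in the WT females. Without that library the 25-week change was -0.556 for Ankrd2 and -0.484 for Csrp3, and without WT male replicate 3 it was 0.208 and 0.352. The part of slow-fibre content or of library composition in these values was not tested.

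Xirp1 and Flnc, the filamin pair, changed little with genotype when the sexes were joined. Xirp1 (ENSMUSG00000079243, chromosome 9, 120013755 to 120023598, minus strand) ran from 10.3 through 17 to 21.8 TPM in WT and from 13.8 through 19.1 to 26.6 in Col6a2-/- mice of 5 weeks, a change of 0.20 (SE 0.211). At 25 weeks it ran from 8.73 through 15.6 to 32.7 and from 12.8 through 19.4 to 39.7, a change of 0.26 (SE 0.211; limma, adjusted p = 0.540). Cx3cr1 shares part of its span on the same strand and reached at most 1.41 TPM. Flnc (ENSMUSG00000068699, chromosome 6, 29433256 to 29461883, plus strand) ran from 32.3 through 40.5 to 55.7 TPM in WT and from 37.4 through 44.7 to 65.0 in Col6a2-/- mice of 5 weeks, a change of 0.19 (SE 0.148), or 0.002 after median-of-ratios scaling. At 25 weeks the change was 0.024 (SE 0.148; limma, adjusted p = 0.952). Within the sexes Flnc had 0.39 in males (limma, adjusted p = 0.300), or 0.20 after median-of-ratios scaling, and -0.34 in females (limma, adjusted p = 1), neither of them called. It was at 41.8, 37.5, 42.2 and 30.7 TPM in WT males and higher in all Col6a2-/- males, at 55.5, 42.9, 53.3 and 48.4, as were 13.9% of all genes. In females it was at 68.5, 39.7, 68.6 and 66.9 in WT and 49.4, 30.0, 59.7 and 53.3 in Col6a2-/- mice, which overlapped.

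Cryab had the highest mean TPM of the 9 in each of the 8 groups. Cryab (ENSMUSG00000032060, chromosome 9, 50751325 to 50756636, plus strand) was at 98.8, 110, 106 and 110 TPM in WT females of 5 weeks and 154, 121, 167 and 150 in Col6a2-/- females, with no overlap (8.53% of all genes were higher in this way). In males of 5 weeks it was at 115, 157, 77.6 and 104 in WT and 144, 195, 167 and 130 in Col6a2-/- mice, which overlapped. All 8 Col6a2-/- mice were above the WT mean of their sex, and the change was 0.49 (SE 0.151). At 25 weeks the mean of Cryab was above its 5-week mean in each group, and values ran from 76.0 through 177 to 233 TPM in WT and from 138 through 219 to 247 in Col6a2-/- mice. The genotypes overlapped, and the change was 0.27 (SE 0.151; limma, adjusted p = 0.334). Hspb2 lies antisense within the span of Cryab and reached 32.5 TPM. Whether strand was used in counting is not given in the sources used here, so the Cryab level is uncertain to that extent.

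Hspb1 (ENSMUSG00000004951, chromosome 5, 135887919 to 135889563, plus strand) was at 41.9, 44.2, 47.1 and 46.3 TPM in WT females of 5 weeks and at 59.1, 59.9, 84.6 and 60.5 in Col6a2-/- females. These ranges did not overlap, but in males of 5 weeks they did, at 62.9, 65.4, 55.0 and 62.7 in WT and 60.4, 75.7, 80.7 and 53.2 in Col6a2-/- mice. The WT males were above the WT females, and the Col6a2-/- females, at 59.1 to 84.6, lay near the males of either genotype. The change was 0.32 (SE 0.132) at 5 weeks and 0.24 (SE 0.132; limma, adjusted p = 0.337) at 25 weeks, when Hspb1 ran from 36.7 through 47.9 to 61.8 TPM in WT and from 37.4 through 61.6 to 87.1 in Col6a2-/- mice.

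The age difference in WT muscle is given as a description, since it uses the WT mice of 5 weeks. Cryab was higher at 25 than at 5 weeks by 0.63 (SE 0.151), and the other 8 lay between -0.11 for Rrad and 0.30 for Ankrd2. By the limma call 1 of the 9 (Cryab) passed, where 19.8% of all genes did in either direction, and nothing is read from the count. In Col6a2-/- muscle Rrad was lower at 25 weeks by -2.16 (SE 0.253) and Ankrd1 by -0.87 (SE 0.211), while Cryab was higher by 0.41 (SE 0.151). Over both genotypes and ages none of the 9 differed between the sexes by the limma call, where 3.05% of all genes did. The widest was Csrp3, at -0.70 (SE 0.345) in males relative to females (limma, adjusted p = 0.390).

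At 25 weeks the genotype difference was taken within each sex, a comparison added after the data were seen. In males all 9 genes had a change above 0, or 7 of 9 without the WT male replicate 4 described above, when Ankrd2 had -0.34 and Csrp3 -0.16. Mustn1 rose by 1.36 (SE 0.186; limma, adjusted p = 0.000202) and Rrad by 1.37 (SE 0.358; limma, adjusted p = 0.0334). These 2 calls of 9 stand against 2.91% of all genes called higher in males. Mustn1 kept its call without each library in turn, but Rrad lost it without WT male 1, 2 or 3 or Col6a2-/- male 1, 3 or 4 of 25 weeks (limma, adjusted p from 0.0547 to 0.123), and with a pseudocount of 5 or no filter on low genes. Ankrd1 had 0.98 (limma, adjusted p = 0.0656). It was called without Col6a2-/- male 2 of 25 weeks, when Hspb1 and Cryab were called too, without Col6a2-/- female 2 or 4 of 5 weeks, and with a pseudocount of 0.1 (limma, adjusted p from 0.0338 to 0.0436). The median of the 9 was 0.72 beside 0.137 over all genes. It ran from 0.47 without Col6a2-/- male 1 and 0.48 without WT male 4 to 1.14 without WT male 2. In females 3 of 9 were above 0 (2 to 6 when a library was left out, most without Col6a2-/- female 2), the median was -0.036 beside 0.030 over all genes, and none was called (limma, 0.0078% of all genes called in either direction), with 2 of 9 under an unadjusted p of 0.05, as were 4.85% of all genes. Rrad had 1.03 (SE 0.358; limma, adjusted p = 0.681) and Mustn1 0.52 (SE 0.186; limma, adjusted p = 0.728) in females. Marker sums differed in the same males without overlap: fibroblast 265 to 433 TPM in WT and 497 to 787 in Col6a2-/-, macrophage 41.6 to 67.1 and 110 to 181, endothelial 62.6 to 72.4 and 81.6 to 96.1, smooth muscle 140 to 160 and 167 to 231, adipocyte 101 to 295 and 314 to 566, and tenocyte 18.3 to 63.1 and 66.3 to 87.8. The muscle fibre, slow-fibre, full regenerating, satellite-cell, Schwann-cell and erythrocyte sums overlapped between the genotypes in these males. Of all single genes tested, 13.9% were higher in all 4 Col6a2-/- males than in any WT male of that age. In females of 25 weeks each of the 6 sums that separated in males overlapped between the genotypes. The regenerating-fibre sum without Myh8, described below, was 7.20 to 10.3 TPM in these WT males and 12.9 to 20.3 in the Col6a2-/- males, without overlap. It was 11.7 to 15.7 and 15.6 to 30.2 in the females, which overlapped. The part of any of these sums in the changes within sex was not tested.

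The difference between the sexes was itself tested. At 25 weeks the male change exceeded the female change in all 9 genes, by a median of 0.85 beside 0.112 over all genes, but none was called (limma, adjusted p = 0.991 for each, with 0.0156% of all genes called). Unadjusted p-values were under 0.05 in 3.37% of all genes and in 4 of the 9: Mustn1 (0.85, SE 0.263), Flnc (0.73, SE 0.297), Ankrd1 (0.93, SE 0.422) and Xirp1 (0.92, SE 0.421). Over both ages together none of the 9 was called for genotype by sex by limma, where 0.0156% of all genes were, and none of the 9 had an unadjusted p under 0.05, as 1.61% of all genes had. At 5 weeks 4 of 9 had the larger change in males.

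**Figure D2:**
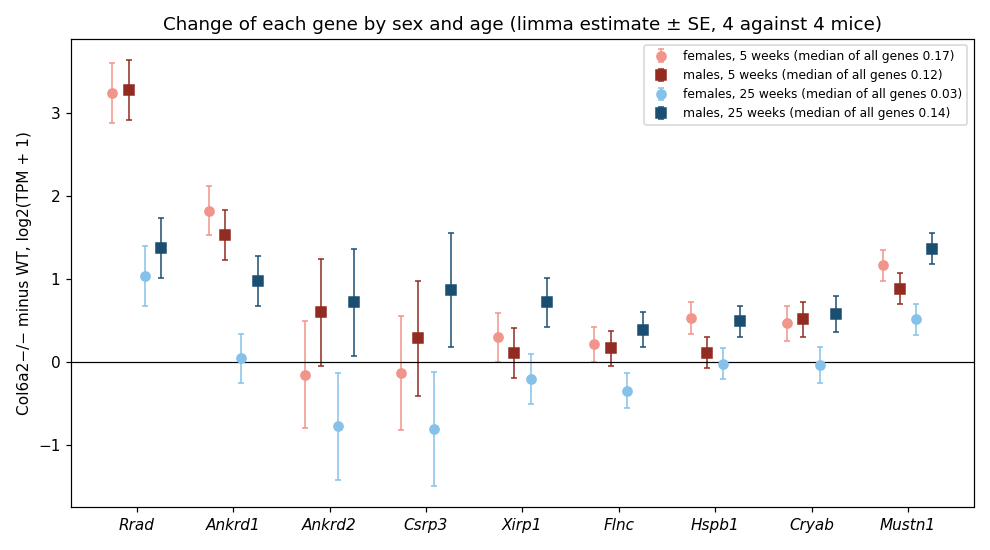
Change of each gene, Col6a2-/- minus WT on the log2(TPM + 1) scale (limma estimate, bars are ± SE, 4 against 4 mice), in females (circles) and males (squares) of 5 weeks (reds) and 25 weeks (blues). Males of 25 weeks lie above 0 for all 9 genes, or for 7 (not Ankrd2 and Csrp3) without the WT male replicate 4, and above the females of that age, while Rrad is near 3.2 in either sex at 5 weeks.

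The genes were compared with lists of their pathway partners, where at 5 weeks 23.2% of all genes were called higher and 2.14% lower, and at 25 weeks 4.47% higher and 0.234% lower. These shares depend on the scaling. After median-of-ratios scaling, 1623 of the 3102 genes called at 5 weeks were higher, and 750 of the 1282 at 25 weeks. The lists were chosen with earlier results of these mice known, and the partners named are mostly those with the smallest adjusted p at 5 weeks. Their adjusted p-values therefore only place them in the fit over all genes and are not independent evidence. Of 30 Z-disc, titin and filamin genes, 5 were called higher and 6 lower at 5 weeks (median -0.13), and 3 higher at 25 weeks (median -0.031). Fhl2, a LIM protein that binds titin, rose by 1.02 (SE 0.10; limma, adjusted p = 2.7e-08), and Igfn1, a Z-disc protein, by 1.49 (SE 0.269; limma, adjusted p = 0.00019). Ankrd23, the remaining muscle ankyrin repeat gene, fell by 0.59 (SE 0.124; limma, adjusted p = 0.0010). It was at 619 ± 53.2 TPM in WT and 417 ± 77.8 in Col6a2-/- mice (SD, n = 8). The 3 ankyrin repeat genes therefore had 3 patterns at 5 weeks, with Ankrd1 higher, Ankrd2 overlapping WT and Ankrd23 lower. At 25 weeks Fhl2 (0.44), Smpx (0.37) and Flna (0.49) were called higher, and Ankrd23 had -0.27 (SE 0.124; limma, adjusted p = 0.219).

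Of 20 other chaperones, 4 were called higher at 5 weeks and none lower (median 0.28), and none at 25 weeks (median 0.12). Hspa8, the constitutive HSP70, rose by 0.57 (SE 0.113; limma, adjusted p = 0.00051) and the small heat shock protein Hspb8 by 0.55 (SE 0.15; limma, adjusted p = 0.0085). Bag3, the partner of Hspb8, had 0.17 (SE 0.118; limma, adjusted p = 0.291). Of 11 genes of the SRF pathway, which couples actin to transcription, 3 were called higher at 5 weeks (Tpm4, Acta2 and Vcl; list median 0.051) and Tpm4 at 25 weeks. Of 10 genes of the YAP and TEAD pathway, for which Ankrd1 is a well-known target, 5 were called higher at 5 weeks (list median 0.25) and 1 at 25 weeks (Axl, 0.57). Tead4, a TEAD factor of muscle progenitors, rose by 0.78 (SE 0.096; limma, adjusted p = 1.1e-06) at 5 weeks, as did the well-known target Cyr61, by 0.51 (SE 0.167; limma, adjusted p = 0.027). Ctgf, also a well-known target, had 0.15 (SE 0.338; limma, adjusted p = 0.768).

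Rrad belongs to a family of 4 GTPases. Of the 13 other RGK and calcium channel genes, 9 were tested, with 2 called higher and 1 lower at 5 weeks and 1 higher at 25 weeks. Gem, the RGK gene called at both ages, rose by 0.58 (SE 0.123; limma, adjusted p = 0.0012) at 5 weeks and by 0.48 (SE 0.123; limma, adjusted p = 0.022) at 25 weeks. Its levels were 1.49 ± 0.626 and 2.72 ± 0.827 TPM at 5 weeks (SD, n = 8), a smaller ratio than that of Rrad. Rem2 was listed at 0 in every library.

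Markers of other cell states moved with the same genotype contrast. Of 9 regenerating-fibre markers (embryonic myosin, fusion and early muscle genes), 8 were called higher at 5 weeks and 2 at 25 weeks. All 8 macrophage markers were called higher at 5 weeks and 7 of 8 at 25 weeks, as were 4 of 8 fibroblast markers at each age. At 5 weeks 4 of 6 endothelial and 2 of 3 tested satellite-cell markers were also called higher, and 3 of 8 muscle fibre markers lower; at 25 weeks 1 satellite-cell marker was called higher, and no endothelial or muscle fibre marker was called by limma. The full regenerating sum overlapped between genotypes, at 115 to 161 TPM in WT and 143 to 302 in Col6a2-/- mice of 5 weeks, and with medians of 123 and 110 at 25 weeks. A sum added after the data were seen, without Myh8, whose level of 118 TPM in WT outweighed the rest, was 13.3 to 21.5 TPM in WT and 46.6 to 149 in Col6a2-/- mice of 5 weeks. At 25 weeks it was 7.20 to 15.7 in WT and 12.9 to 30.2 in Col6a2-/- mice. The 2 mice of 5 weeks with the lowest Rrad of their Col6a2-/- group also had the lowest sums without Myh8, 46.6 in the female and 88.8 in the male replicate 4. The same 2 mice were also the lowest of their groups in the fibroblast, macrophage, endothelial and tenocyte sums. Their libraries had the highest mitochondrial share of their groups, at 42.96% in the female and 42.36% in the male. They also had the fewest genes at 1 TPM of their groups, 10903 and 11552. In the full regenerating sum the male was again lowest of its group (178), but the female (148) was above replicate 3 (143). The macrophage sum was 61.6 to 104 TPM in WT and 100 to 347 in Col6a2-/- mice of 5 weeks, and 41.6 to 115 against 110 to 208 at 25 weeks. The part of these cells or of library composition in the levels of Rrad, Ankrd1 and Mustn1 was not tested.

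Within the groups, the 9 genes fell into sets by how they varied from mouse to mouse. Deviations from the group means were compared over the 32 libraries as a description. These points share 8 group means and the TPM total of each library. Ankrd2 and Csrp3 varied most alike (Pearson's r = 0.92, and 0.84 without the WT male replicate 4 of 25 weeks), with Cryab next to them (0.80 with Ankrd2 and 0.73 with Csrp3, or 0.67 and 0.56 without that library, when Cryab was closest to Hspb1 at 0.69, after 0.58 with it). Ankrd1 and Mustn1 formed a second pair (r = 0.85 with and without it). Xirp1 varied with Flnc (0.71) and Hspb1 (0.68). Rrad went with Mustn1 (0.44) and Ankrd1 (0.40) and not with Ankrd2 (-0.20), and Ankrd1 and Ankrd2 had 0.19.

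**Figure D3:**
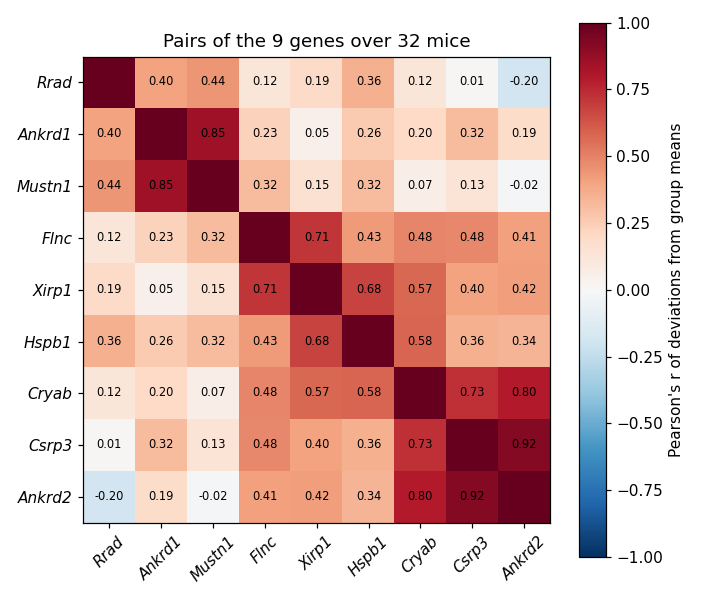
Pearson's r between each pair of the 9 genes, from deviations of log2(TPM + 1) from the group means over 32 mice; the colour scale runs from -1 to 1. Ankrd2, Csrp3 and Cryab form a block of 0.73 to 0.92 and Ankrd1 and Mustn1 a pair at 0.85.

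The deviations were also set against those of 12 marker sums and of the regenerating sum without Myh8, and several cell types gave values of like size. With the regenerating sum without Myh8, r was 0.75 for Rrad, 0.61 for Mustn1, 0.57 for Ankrd1 and 0.31 for Hspb1, and it lay between -0.32 (Ankrd2) and 0.053 (Cryab) for the other 5. With the full sum it was 0.68, 0.62, 0.50 and 0.19 for the first 4. With the fibroblast sum r was 0.61 for Ankrd1, 0.61 for Mustn1 and 0.55 for Rrad. With the macrophage sum it was 0.54 for Rrad, 0.49 for Ankrd1 and 0.41 for Mustn1. With the satellite-cell sum it was 0.62 for Rrad, 0.56 for Ankrd1 and 0.54 for Mustn1, and with the tenocyte sum 0.35, 0.61 and 0.60. Rrad had 0.49 with the endothelial sum and 0.41 with the muscle fibre sum, and Mustn1 had 0.46 with the latter. With the slow-fibre sum it was 0.70 for Ankrd2, 0.59 for Csrp3 and 0.53 for Cryab. Those values rested largely on the WT male replicate 4 of 25 weeks and were 0.37, 0.23 and 0.22 without it. Ankrd2 had -0.50 with the fibroblast sum, -0.46 with the muscle fibre sum and -0.33 with the tenocyte sum. Without that library these were -0.52, -0.27 and -0.55. Csrp3 had 0.35 with the smooth muscle sum and Cryab 0.39 with the endothelial sum, or 0.56 and 0.37 without that library. These are all descriptions over the same 32 libraries.

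**Figure D4:**
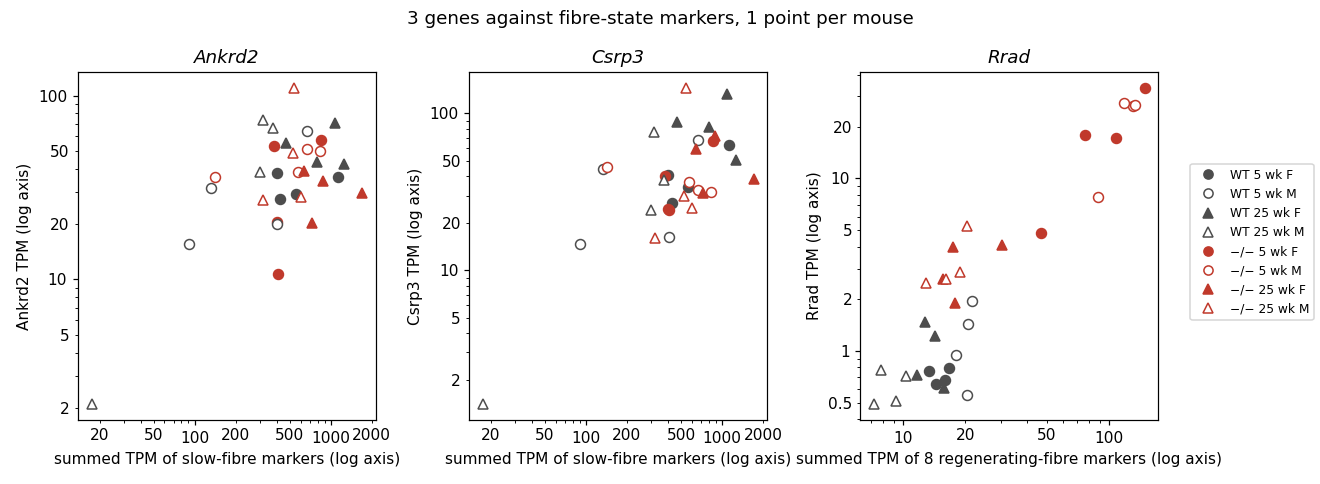
TPM of Ankrd2 and Csrp3 against the summed TPM of 10 slow-fibre markers, and of Rrad against that of 8 regenerating-fibre markers (Myh8 left out), 1 point per mouse on log axes. The isolated point at the lower left is the WT male replicate 4 of 25 weeks (17.5 TPM of slow-fibre markers), and Col6a2-/- mice of 5 weeks hold the highest values of Rrad and of the regenerating sum.

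Over all 32 libraries, the genes outside the set whose log2(TPM + 1) was most like the mean z-score of the 9 were Hspb7 (r = 0.81), Myom3 (0.81), Akap1 (0.80), Arhgap24 (0.80), Enah (0.79), 2010111I01Rik (0.79), Lmcd1 (0.78), Rsph3b (0.77), Otulin (0.77) and Fhl1 (0.76). Each of the 9 is itself part of that mean, which raises its r, so their values are not comparable with those of the genes outside. Among the 9, Cryab was closest to their mean (0.79) and Rrad least close (0.56). Lmcd1 had the highest likeness of those 10 once the group means were removed (0.89). It is one of the 30 Z-disc genes above and was not called at either age, with changes of 0.26 (SE 0.204; limma, adjusted p = 0.356) and 0.072 (SE 0.204; limma, adjusted p = 0.885).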

How the data were processed

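Quadriceps RNA of 32 mice gave 1 table per library. Per the labels' protocols, RNA with a RIN of at least 8 from cryosections was made into TruSeq libraries and sequenced paired-end. Per the submitters' processing notes, FastQC, MultiQC, Trimmomatic, HISAT2, SAMtools and StringTie were used on GRCm38; their versions, the gene annotation and whether strand was used are not given in the sources used here. Per the file headers, the authors deposited TPM and FPKM values and coverage (mean read depth) for each gene ID.

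Values were tested as log2(TPM + 1) for genes of at least 1 TPM in at least 4 libraries, by limma 3.58.1 (lmFit, eBayes with trend) in R 4.3.3, with 1 mean for each of 8 groups, two-sided tests and Benjamini-Hochberg adjustment over 12817 genes, checked on simulated data. This scale understates changes of low genes. Coverage and FPKM served for relative depth and as alternatives. For Csrp3 and Cryab, coverage relative to FPKM was 0.161 to 0.260 and 0.285 to 0.350 of the ratio most genes shared. It was 0.876 to 0.877 for Hspb1, 0.920 to 0.950 for Flnc and 0.896 to 1.00 for Rrad. The cause was not tested. No counts were used, so no counting interval is given. Tables were handled in Python 3.11.15 with pandas 2.3.3, numpy 2.4.6 and scipy 1.17.1.

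The 9 genes, the partner lists and the markers were chosen with earlier results of these data known; Rrad at 5 weeks was one such result, and which others guided the choice is not recorded. Named from each list were up to 4 called genes of smallest adjusted p at 5 weeks and any given for contrast. The 10 genes most alike were taken by Pearson's r with the mean z-score. The regenerating sum without Myh8, coverage in place of TPM, and the comparisons within sex were added after the data were seen. Replicates are separate mice. Of 112 pairs of libraries with the same number, deviations correlated at -0.34 to 0.349 (median 0.032), so numbers were not taken as pairs. No file repeated another.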

Additional observations from a re-analysis of the deposited data

Results flagged for a closer look

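Of 72 combinations of gene and group of 4 mice, 4 held 1 mouse far from the other 3 (its gap to the nearest mouse, over the range of the group, past Dixon's critical value, on the log2(TPM + 1) scale); chance gives about 1 in 20. Rrad was at 7.83 TPM in the Col6a2-/- male replicate 4 of 5 weeks, against 26.2 to 27.5 in the others of that group. Rrad was at 5.28 TPM in the Col6a2-/- male replicate 3 of 25 weeks, against 2.49 to 2.85. Flnc was at 39.7 TPM in the WT female replicate 2 of 25 weeks, against 66.9 to 68.6. Hspb1 was at 84.6 TPM in the Col6a2-/- female replicate 3 of 5 weeks, against 59.1 to 60.5. On TPM without a log, a scale added after the data were seen, these 4 passed and also Csrp3 at 146 TPM in the Col6a2-/- male replicate 1 of 25 weeks, against 16.0 to 30.0.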

How the results depend on the processing

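Rrad kept its 25-week call without each of the 32 libraries (1.10 to 1.28) and under 10 of 11 other settings, and Mustn1 under all of them. With a pseudocount of 5 the members called at 25 weeks were 1 in place of 2, and without each library in turn they were 2. Changes near 0 at 25 weeks turned sign. Ankrd2 (-0.027) became 0.018 with a pseudocount of 0.1 and ran from -0.556 to 0.208 when a library was left out. Csrp3 (0.033) became -0.082 with a pseudocount of 5, -0.080 with median-of-ratios scaling, -0.023 with quantile normalization and -0.019 from coverage, and ran from -0.484 to 0.352. Flnc (0.024) became -0.094 with median-of-ratios scaling and -0.048 without mitochondrial and Rn7s genes, and ran from -0.071 to 0.127. At 5 weeks Rrad was 4.12 with a pseudocount of 0.1 and 1.95 with 5, and Ankrd1 1.03 with 5. With median-of-ratios scaling Xirp1 was 0.025 at 5 weeks and 0.144 at 25 weeks, Hspb1 0.135 and 0.117, and Cryab 0.299 and 0.151. Ankrd2 was 0.042 at 5 weeks on that scale and ran from 0.063 to 0.448 without 1 library. Without 1 library, Xirp1 ran from 0.113 to 0.285 at 5 weeks and from 0.096 to 0.377 at 25 weeks. At 25 weeks Hspb1 ran from 0.16 to 0.36 and Cryab from 0.141 (without the WT male replicate 4) to 0.356.

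Genes called at 25 weeks numbered 603, and 317 with a pseudocount of 5, 343 with no filter, 344 at 5 TPM, 1282 with median-of-ratios scaling, 1177 with only those groups in the fit, and 270 to 983 without 1 library. Of those mice, the Col6a2-/- males 1 (270) and 3 (388), the Col6a2-/- females 1 (319) and 4 (365), the WT female 4 (326) and the WT males 2 (366) and 3 (354), all of 25 weeks, and the Col6a2-/- females 2 (983) and 4 (967) of 5 weeks moved the count by over 1.5 times. At 5 weeks 3253 were called, and 1553 at 5 TPM and 1907 with only those groups. Those called higher were 2979 of 3253, but 1623 of 3102 with median-of-ratios scaling and 1413 of 3085 with quantile normalization; at 25 weeks they were 573 of 603, 750 of 1282 and 483 of 848. For sex, 391 became 258 at 5 TPM, 822 with median-of-ratios scaling, 661 without mitochondrial and Rn7s genes, 828 with quantile normalization, and 327 to 693 without 1 library (most without the Col6a2-/- female 2 of 5 weeks). For genotype by sex, 2 became 5 with no filter. For age in WT, 2536 became 1441 at 5 TPM. These counts are of different totals. The fit held 6573 genes at 5 TPM, 32958 with no filter and 16060 without mitochondrial and Rn7s genes, in place of 12817. A lower count at 5 TPM is therefore not in itself a lower share of the genes tested. The cause of the shifts in count was not tested. With the replicate block, 658 genes were called at 25 weeks, 3293 at 5 weeks, 385 for sex, 2 for genotype by sex and 2587 for age in WT, and 2 members at 25 weeks. TPM gives no depth per gene, so precision rests on the number of mice alone.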
